A study of Caenorhabditis elegans with 30 samples.

Results

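The genes described here encode parts of the machinery that brings proteins made in the cytosol into mitochondria, and 10 of the 46934 genes in the count table were taken by name: tomm-20, tomm-22, tomm-40, tomm-7, tin-9.1, tin-9.2, tin-10, timm-23, scpl-4 and tin-44. The rule uses their names and no expression value, but the list was drawn up with earlier results of these data known. Counts of its genes that passed are therefore not independent of those results. Most mitochondrial proteins are encoded in the nucleus and must cross the mitochondrial membranes unfolded. They enter through the TOM complex of the outer membrane, which holds the receptors TOMM-20 and TOMM-22, the channel TOMM-40 and the small subunit TOMM-7. Hydrophobic proteins are then guarded across the intermembrane space by small TIM chaperones (TIN-9 and TIN-10), while proteins bound for the matrix pass the TIM23 channel (TIMM-23) of the inner membrane, are handed over by its receptor SCPL-4 (TIMM50 in mammals), and are pulled in by a motor that TIN-44 (TIMM44 in mammals) anchors to the channel.

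RNA was sequenced from the ends of transcripts in whole C. elegans hermaphrodites, 2 libraries in each of 15 groups. All worms, controls included, carried glp-1(e2141), which leaves animals raised at 25 °C without a germline. The mutants carried set-26(tm2467) or hcf-1(pk924) in addition, 1 strain each. SET-26 and HCF-1 are chromatin factors whose loss lengthens life. Adults were taken at day 1 on EV, the L4440 empty vector bacteria, and later, at days 3 and 12, either on EV or on hda-1 RNAi, which targets a histone deacetylase and was begun at day 1. Samples are bulk worms, so fewer cells of a type and less RNA per cell cannot be told apart. Replicate libraries are labelled as separate samples, and p-values measure the spread between them.

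A library held 6045498 to 17748121 reads (median 8323966). A count of 0 allows up to 3 reads, or 4.96e-05% of the library with the fewest, and as molecules were not tagged before PCR this limit covers counting error only. Of 10 germline markers, 6 had over 10 reads in any library, and their summed level was 7.05 to 43.9 CPM (reads scaled to library size with TMM factors). The reads of hda-1 were higher, not lower, where the label says hda-1 RNAi (252.3 to 1914 CPM in 12 libraries against 20.5 to 117.1 in 18 on EV), and those of set-26 were not lower in its mutant (log2 fold change 0.22 at day 1, edgeR adjusted p = 0.652). A read at the end of a transcript need not lie in the deleted part, so the reads of set-26 check nothing. Those of hda-1 did not overlap between EV and hda-1 RNAi labels, but ran opposite to a knockdown. The counts do not separate hda-1 transcripts of the worm from RNA of that sequence made by the RNAi bacteria, so they do not measure the knockdown. These groups are therefore named by their labels. The reads of hcf-1 were lower in libraries labelled hcf-1(-) at day 1 (log2 fold change -2.17, edgeR adjusted p = 0.0123).

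All 10 genes are protein coding and lie in WBcel235 on chromosomes I to V. Those of the outer membrane are tomm-20 (WBGene00009092; chromosome V, 12342314 to 12343469, minus strand), tomm-22 (WBGene00021133; II, 468374 to 470475, minus), tomm-40 (WBGene00007686; II, 8971965 to 8973566, minus) and tomm-7 (WBGene00022783; III, 7859613 to 7860159, plus). Those of the small TIM chaperones are tin-9.1 (WBGene00006572; IV, 7044058 to 7044602, minus), tin-9.2 (WBGene00044083; IV, 13098995 to 13100604, plus) and tin-10 (WBGene00006573; III, 11500867 to 11502853, minus). The inner membrane genes are timm-23 (WBGene00008857; I, 11578641 to 11579612, plus), scpl-4 (WBGene00011897; V, 10599104 to 10602146, plus) and tin-44 (WBGene00020383; I, 6177934 to 6180840, minus). A gene was tested where more than 10 reads were counted in at least 2 libraries of the fit. By this filter 9 genes were tested in every comparison. The exception, tin-9.2, had 0 to 7 reads per library and overlaps exos-4.1 on its own strand, so that its few reads are also uncertain.

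The 9 genes did not share a single course over the 15 groups. The libraries labelled set-26(-) at day 1 held the highest mean of 6 genes, namely tomm-20 (mean 99.9 CPM), tomm-22 (95.5), tomm-7 (96.4), tin-9.1 (71.1), tin-10 (31.7) and tin-44 (170.9). The other 3 had their highest means elsewhere, scpl-4 in hcf-1(-) at day 1 (46.2 CPM), timm-23 in hcf-1(-) at day 12 on EV (151.6) and tomm-40 in set-26(-) at day 3 on EV (16.8). The lowest mean of tomm-20, tomm-22, tomm-40, tomm-7 and tin-9.1 was in day 12 controls labelled hda-1 RNAi. From the lowest to the highest group mean the span was widest for timm-23 (7.79-fold) and tin-9.1 (6.25-fold), and narrowest for tomm-40 (2.14-fold). When a gene's 15 group means were put in order, the replicates of neighbours overlapped more often than not. Of 14 neighbouring pairs, 5 were separated for tomm-22, 4 each for tomm-20, tin-9.1 and tin-44, 3 each for timm-23 and scpl-4, 1 each for tomm-7 and tin-10, and 0 for tomm-40.

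**Figure D1:**
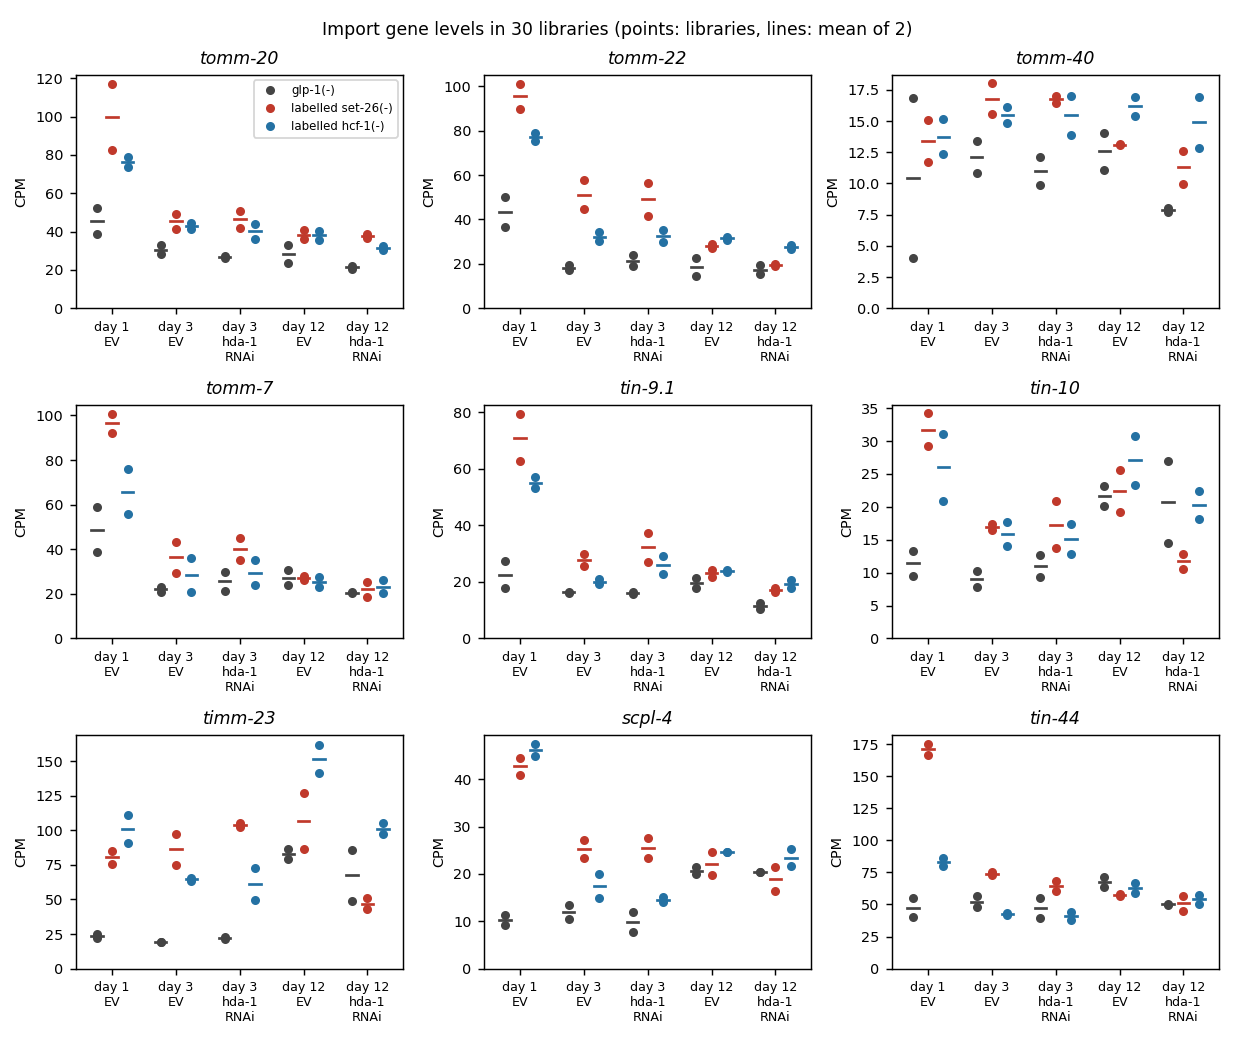
Levels of the 9 tested import genes in CPM (vertical axis, linear, from 0) by day and bacteria (horizontal axis), with 1 point per library, a line at the mean of 2, and colours for the genotype label. The tallest points are those labelled set-26(-) at day 1 for tomm-20, tin-9.1 and tin-44, and those of hcf-1(-) at day 12 on EV for timm-23, where the means are 99.9, 71.1, 170.9 and 151.6 CPM.

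At day 1 most import genes were higher in the mutants than in glp-1(-) controls. In the libraries labelled set-26(-), 7 of 9 rose and 0 fell, where 4.45% of the 12369 genes tested rose and 4.19% fell. In hcf-1(-), 6 of 9 rose and 0 fell, where 7.76% of all genes rose and 5.84% fell. The median log2 fold change was 1.48 for set-26(-), where that of all genes was 0.03, and 0.87 for hcf-1(-), where that of all genes was 0.04. The controls are the same libraries in both comparisons. All log2 fold changes are given with their standard error and the Benjamini-Hochberg adjusted p of edgeR's quasi-likelihood test across all genes tested.

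The widest day 1 differences were those of timm-23 and scpl-4 in hcf-1(-) and of scpl-4, tin-44 and timm-23, the inner membrane genes, in set-26(-). The channel gene timm-23 was at 22.2 and 25.1 CPM in controls, 75.8 and 85.1 in set-26(-), and 90.6 and 111 in hcf-1(-). Both mutants lay above both controls, with log2 fold changes of 1.77 ± 0.22 (adjusted p = 0.00318, edgeR) and 2.13 ± 0.22 (adjusted p = 0.00143, edgeR). The receptor gene scpl-4 was at 11.4 and 9.31 CPM in controls, 44.5 and 40.9 in set-26(-), and 47.4 and 45.0 in hcf-1(-). It rose by 2.04 ± 0.23 (edgeR adjusted p = 0.00215) and 2.19 ± 0.23 (edgeR adjusted p = 0.00149), which are folds of 4.13 and 4.57. The motor anchor gene tin-44 was at 55.3 and 39.9 CPM in controls, 175 and 167 in set-26(-), and 80.3 and 86.5 in hcf-1(-). Both mutants lay above controls, with log2 fold changes of 1.85 ± 0.23 (edgeR adjusted p = 0.00351) and 0.85 ± 0.23 (edgeR adjusted p = 0.046).

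Both tested small TIM chaperone genes rose in both mutants at day 1. The gene tin-9.1 was at 27.5 and 17.7 CPM in controls, 79.3 and 62.9 in set-26(-), and 57.0 and 53.3 in hcf-1(-), which gave log2 fold changes of 1.66 ± 0.28 (edgeR adjusted p = 0.0112) and 1.33 ± 0.27 (edgeR adjusted p = 0.0188). Its partner tin-10 was at 9.48 and 13.3 CPM in controls, 34.2 and 29.2 in set-26(-), and 20.9 and 31.1 in hcf-1(-). Neither gene had a mutant library within the range of the controls, and tin-10 differed by 1.48 ± 0.30 (edgeR adjusted p = 0.0247) and 1.23 ± 0.30 (edgeR adjusted p = 0.0342).

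Of the 4 outer membrane genes, 2 passed in set-26(-) and 1 in hcf-1(-). The receptor gene tomm-22 was at 50.3 and 36.5 CPM in controls, 89.9 and 101 in set-26(-), and 79.2 and 75.5 in hcf-1(-). It was the TOM gene that passed in both mutants, with log2 fold changes of 1.14 ± 0.23 (edgeR adjusted p = 0.0237) and 0.87 ± 0.23 (edgeR adjusted p = 0.0426). The receptor gene tomm-20 was at 52.2 and 39.0 CPM in controls, 117 and 82.6 in set-26(-), and 79.0 and 73.7 in hcf-1(-), and passed in set-26(-) alone (1.14 ± 0.26, edgeR adjusted p = 0.0366, against 0.78 ± 0.26, adjusted p = 0.0835). The small subunit gene tomm-7 did not pass, at 0.99 ± 0.27 (edgeR adjusted p = 0.0619) and 0.47 ± 0.27 (adjusted p = 0.286). Nor did the channel gene tomm-40, whose controls differed most among themselves. It had 16.8 and 3.99 CPM there (87 and 21 reads), against 15.1 and 11.7 in set-26(-) and 15.2 and 12.3 in hcf-1(-), with log2 fold changes of 0.36 ± 0.56 (edgeR adjusted p = 0.73) and 0.44 ± 0.55 (adjusted p = 0.653).

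Single libraries decided many of these day 1 calls. Calls over all genes also fell without either replicate of a mutant, so such losses were not particular to the import genes. For set-26(-), 8 genes were called without control replicate 1, 5 without control replicate 2, 3 without set-26(-) replicate 1 and 5 without set-26(-) replicate 2, and the genes called in all 4 runs were timm-23, scpl-4 and tin-44. For hcf-1(-), the counts were 6 and 4 without control replicates 1 and 2, and 2 without either hcf-1(-) replicate. Those 2 genes, timm-23 and scpl-4, were called in every run. In simulated counts with the day 1 design, 11% of 2-fold and 77% of 4-fold changes were recovered. A gene that did not pass may therefore still differ. There 100 of 12369 genes were changed at each fold, whereas 1069 were called in set-26(-), so the rates need not hold here. TMM factors were 0.639 to 0.699 in controls, 0.797 to 0.818 in set-26(-) and 0.914 to 0.991 in hcf-1(-). Scaled by library totals instead, the median of all genes moved to 0.30 and 0.51, and that of the import genes to 1.73 and 1.35. Summed intestine markers also differed between these groups, at 651.2 to 796.7 CPM in controls, 993.7 to 1519 in set-26(-) and 803.0 to 946.4 in hcf-1(-). Summed hypodermis markers were lower in hcf-1(-) (5297 to 7190 CPM) than in controls (7831 to 11546), while set-26(-) overlapped with controls. Muscle and neuron markers overlapped with controls in both mutants. The part of these tissues in the result was not tested.

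**Figure D2:**
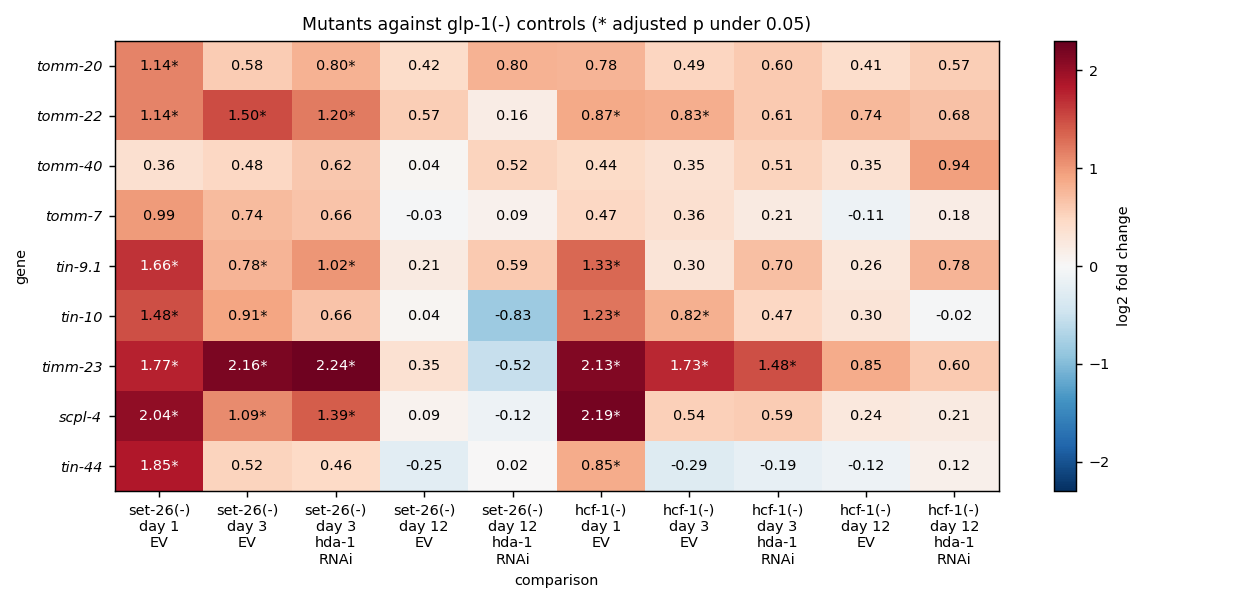
Log2 fold changes of 9 import genes (rows) in set-26(-) and hcf-1(-) libraries against glp-1(-) controls of the same day and bacteria (columns), coloured from blue (lower) to red (higher), with a star at an edgeR adjusted p under 0.05. The starred cells lie at days 1 and 3, with 7 and 6 genes at day 1, and none of the 4 day 12 columns holds a star.

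At day 3 on EV the gene of the TIM23 channel led the difference. In controls timm-23 was at 19.6 and 19.4 CPM, in set-26(-) at 97.6 and 74.7, and in hcf-1(-) at 65.8 and 63.2. It rose by 2.16 ± 0.20 (edgeR adjusted p = 6.03e-07) and 1.73 ± 0.20 (edgeR adjusted p = 8.9e-06), and the pairs of libraries lay far apart. The receptor gene tomm-22 was at 19.4 and 17.2 CPM in controls, 58.0 and 44.5 in set-26(-), and 30.2 and 34.5 in hcf-1(-), with log2 fold changes of 1.5 ± 0.21 (edgeR adjusted p = 6.97e-05) and 0.83 ± 0.21 (edgeR adjusted p = 0.0124). Also higher in both was tin-10, by 0.91 ± 0.26 (edgeR adjusted p = 0.0247) and 0.82 ± 0.26 (edgeR adjusted p = 0.0426). In set-26(-), scpl-4 (1.09 ± 0.25, edgeR adjusted p = 0.00519) and tin-9.1 (0.78 ± 0.22, edgeR adjusted p = 0.0216) rose too, while in hcf-1(-) they were at 0.54 and 0.30 and did not pass.

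In all, 5 of 9 genes rose and 0 fell in set-26(-) at day 3 on EV (8.17% and 6.04% of 12517 genes), and 3 of 9 rose and 0 fell in hcf-1(-) (6.81% and 7.29%). The medians were 0.78 and 0.49, against 0.02 and 0.05 for all genes. Without control replicates 1 and 2 and set-26(-) replicates 1 and 2 in turn, 3, 2, 2 and 4 genes were called in set-26(-). In hcf-1(-), 1 gene was called without either control replicate and 2 without hcf-1(-) replicate 2. The gene timm-23 was called in all of these runs, and tomm-22 in all of those for set-26(-). Calls over all genes were also fewer in every set-26(-) run, and in those of hcf-1(-) without a control replicate. By library totals 8 genes were called in each mutant, with the medians of all genes at 0.24 and 0.44. Shares of all genes are given for TMM scaling, so calls by library totals, here and below, cannot be set against them. The gene tin-44 was at 48.2 and 56.3 CPM in controls, 73.1 and 75.0 in set-26(-), and 42.1 and 43.1 in hcf-1(-), and neither difference passed (0.52 ± 0.18 and -0.29 ± 0.18). The sign of the latter turned to 0.10 by library totals.

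Under hda-1 RNAi labels at day 3, 5 of 9 genes were higher in set-26(-) (5.75% of all genes) and 1 of 9 in hcf-1(-) (5.77%). Whether these mutant effects differ from those on EV was not tested at day 3. In controls timm-23 was at 21.4 and 22.8 CPM, in set-26(-) at 105 and 102, and in hcf-1(-) at 49.7 and 72.4. Its log2 fold changes were 2.24 ± 0.22 (edgeR adjusted p = 3.82e-05) and 1.48 ± 0.21 (edgeR adjusted p = 0.00106). The others that rose in set-26(-) were scpl-4 (1.39 ± 0.26, edgeR adjusted p = 0.00437), tomm-22 (1.20 ± 0.22, edgeR adjusted p = 0.00461), tin-9.1 (1.02 ± 0.23, edgeR adjusted p = 0.015) and tomm-20 (0.80 ± 0.20, edgeR adjusted p = 0.0234). Only 2 of the 5 were called without control replicate 1 or 2, or without set-26(-) replicate 1, and timm-23 was called in every such run for both mutants. Calls over all genes were fewer in those runs too. Medians were 0.80 and 0.59, against 0.01 and 0.03 for all genes. By library totals 6 genes were called in each mutant, with the medians of all genes at 0.20 and 0.36 and no share of all genes to set beside them.

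At day 12 no import gene passed in either mutant, on EV or under hda-1 RNAi labels. On EV, 0 of 9 passed in set-26(-) (4.67% of 13608 genes) and 0 of 9 in hcf-1(-) (5.81%). At an unadjusted p under 0.05 edgeR counted 1 and 2 of 9 import genes, and 2729 and 3065 of all 13608 genes. DESeq2's adjusted test called 0 and 1 import genes. The medians were 0.09 and 0.30, against -0.0018 and 0.0035 for all genes. The gene timm-23 was now at 79.2 and 86.8 CPM in controls, 86.2 and 127 in set-26(-), and 141 and 162 in hcf-1(-). The hcf-1(-) libraries were the higher pair, with a log2 fold change of 0.85 ± 0.24 that missed the threshold in edgeR (adjusted p = 0.0683) and passed in DESeq2. Adjusted p-values of timm-23 ran from 0.0903 to 0.323 when 1 library was left out. The gene tomm-22 was at 22.6 and 14.5 CPM in controls, 28.9 and 27.0 in set-26(-), and 30.9 and 32 in hcf-1(-) and was called in both mutants, as the 1 gene each, when control replicate 1 was left out. With hda-1 RNAi labels, 3 and 4 of 9 had an unadjusted p under 0.05 in edgeR, as did 2803 and 2855 of 14256 genes. DESeq2 called 0 import genes in each (edgeR medians 0.09 and 0.57, with 3.25% and 4.31% of all genes called by edgeR).

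The mutants were then compared with each other on EV. At day 3 tin-44 was lower in hcf-1(-) than in set-26(-), at 42.1 and 43.1 against 73.1 and 75.0 CPM (log2 fold change -0.81 ± 0.18, edgeR adjusted p = 0.00841), and was the 1 gene of 9 to pass (4.46% of 12517 genes were lower). All 9 values were below 0 at day 3, with a median of -0.43, against 0.01 for all genes. By library totals tomm-20, tomm-40 and tin-10 were above 0 (0.08, 0.04 and 0.07), with the median of all genes at 0.18. The others, tin-44 among them, stayed below 0. The call was lost without either set-26(-) replicate, and tomm-22 joined it without hcf-1(-) replicate 2. At day 1 tin-44 differed by -1.0 ± 0.23 and did not pass (edgeR adjusted p = 0.0923), which left 0 of 9 (0.445% of all genes lower, 0.59% higher). At an unadjusted p under 0.05 there was 1 import gene, against 1599 of 12369 genes, and DESeq2 called 1 import gene. At day 12, 0 of 9 passed, 0 had an unadjusted p under 0.05 and DESeq2 called 0 (0.676% lower, 0.162% higher). Values of tin-44 at day 12 were 57.8 and 56.6 CPM in set-26(-), 58.7 and 66.4 in hcf-1(-) and 71.1 and 63.7 in controls.

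Whether the mutant effect on EV differed between days 1 and 12 was tested as an interaction in 12 libraries. For set-26(-) the effect on 4 of 9 genes was lower at day 12, where 1.36% of 14360 genes were, and for hcf-1(-) on 2 of 9 (2.51%). For set-26(-), tin-44 changed by -2.09 ± 0.30 (edgeR adjusted p = 0.00408), scpl-4 by -1.95 ± 0.30 (edgeR adjusted p = 0.00579), timm-23 by -1.41 ± 0.33 (edgeR adjusted p = 0.0377) and tin-9.1 by -1.44 ± 0.35 (edgeR adjusted p = 0.0425). Of these, timm-23, scpl-4 and tin-44 belong to the TIM23 machinery. For hcf-1(-), scpl-4 changed by -1.93 ± 0.30 (edgeR adjusted p = 0.00496) and timm-23 by -1.25 ± 0.33 (edgeR adjusted p = 0.0493). All 9 values were negative for each mutant, with medians of -1.41 and -0.90, against -0.04 and -0.05 for all genes. The calls of scpl-4 in both mutants and of tin-44 in set-26(-) held without any 1 of the 8 libraries. That of timm-23 in hcf-1(-) held in 1 of 8 runs (without control day 12 replicate 1) and was lost in the other 7, and timm-23 and tin-9.1 in set-26(-) held in 3 and 2 of 8. By library totals 4 genes were called for each mutant, with the medians of all genes at -0.18 and -0.40 and no share of all genes to set beside them.

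The course with age was read on EV in each genotype, with day 1 as the reference. In controls at day 12, 1 of 9 import genes was higher and 1 lower, shares no larger than those of all 12115 genes tested (11.8% higher, 15% lower). The channel gene timm-23 was at 22.2 and 25.1 CPM at day 1, 19.6 and 19.4 at day 3, and 79.2 and 86.8 at day 12. It rose from day 1 to day 12 by 1.77 ± 0.25 (edgeR adjusted p = 0.00581) and was called without any 1 library. The receptor gene tomm-22 was the lower one, going from 50.3 and 36.5 CPM to 19.4 and 17.2 and then 22.6 and 14.5. It fell by 1.24 to day 3 (log2, SE 0.26, edgeR adjusted p = 0.0348, 5.67% of all genes lower) and by 1.26 to day 12 (SE 0.32, edgeR adjusted p = 0.0342).

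The fall of tomm-22 in controls depended on several choices. The day 3 call was lost without day 3 replicate 1 or 2, runs in which calls over all genes also fell. It was lost too under the replicate block that the division of each day 1 population allows (adjusted p = 0.0515, edgeR). Without either day 1 replicate more import genes were called, and so were more genes of the whole table. The day 12 call was lost without day 1 replicate 1 or day 12 replicate 2, and by library totals, where the value was -0.43 (adjusted p = 0.284, edgeR, range over its alternatives 0.0029 to 0.284). Of the rest in controls at day 12, scpl-4 (11.4 and 9.31 CPM at day 1, 19.9 and 21.4 at day 12) was at 0.96 ± 0.29 (edgeR adjusted p = 0.0558), tin-10 at 0.89 ± 0.31 (edgeR adjusted p = 0.0846) and tomm-7 at -0.88 ± 0.30 (edgeR adjusted p = 0.0802).

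In the mutants most import genes fell with age from their high day 1 levels. In set-26(-), 7 of 9 were lower at day 3 (13.2% of 12067 genes) and 6 of 9 at day 12 (21.1% of 12896). The small subunit gene tomm-7 was at 92.1 and 101 CPM at day 1, 43.4 and 29.3 at day 3, and 27.8 and 26.1 at day 12, and fell by 1.86 to day 12 (log2, SE 0.22, edgeR adjusted p = 7.03e-05). The motor anchor gene tin-44 went from 175 and 167 CPM to 73.1 and 75.0 and then 57.8 and 56.6, and fell by 1.60 (SE 0.22, edgeR adjusted p = 0.000167). Also lower at day 12 were tomm-22 (-1.79), tin-9.1 (-1.65), tomm-20 (-1.41) and scpl-4 (-0.97), with edgeR adjusted p-values between 9.23e-05 and 0.00725. Not so timm-23, at 75.8 and 85.1 CPM at day 1 and 86.2 and 127 at day 12 (0.39 ± 0.25, edgeR adjusted p = 0.234). Nor did tin-10 (-0.52) and tomm-40 (-0.05) pass. Without day 3 replicate 1 or 2, 5 and 3 of the 7 day 3 calls were made, and without day 12 replicate 2 the call of scpl-4 was lost.

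In hcf-1(-), 7 of 9 were lower at day 3 (12.9% of 12797 genes) and 5 of 9 at day 12 (20.5% of 13599), while timm-23 alone was higher at day 12 (19.2% of all genes). Its level went from 90.6 and 111 CPM at day 1 to 65.8 and 63.2 at day 3 and 141 and 162 at day 12. The day 12 rise was 0.57 ± 0.20 (edgeR adjusted p = 0.0377) and was lost without day 1 replicate 1 or day 12 replicate 2, and the day 3 fall (-0.66 ± 0.19, edgeR adjusted p = 0.0325) was lost in 3 of 4 such runs, all but that without day 1 replicate 1. The genes lower at day 12 were tomm-7 (-1.38), tomm-22 (-1.31), tin-9.1 (-1.22), tomm-20 (-1.02) and scpl-4 (-0.92), with edgeR adjusted p-values from 0.000197 to 0.00273. In this genotype tin-44 was at 80.3 and 86.5 CPM at day 1, 42.1 and 43.1 at day 3, and 58.7 and 66.4 at day 12, lower at day 3 (-0.98 ± 0.17, edgeR adjusted p = 0.00455) and short of the threshold at day 12 (-0.43 ± 0.19, edgeR adjusted p = 0.0956).

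The medians from day 1 to day 12 were 0.24 in controls, -1.41 in set-26(-) and -0.92 in hcf-1(-), against 0.04, 0.01 and 0.00 for all genes. These values are relative to TMM scaling, whose factors rose with age (0.639 to 0.699 at day 1 and 1.11 to 1.21 at day 12 in controls). By library totals the medians of all genes became 0.87, 0.67 and 0.43 and those of the import genes 1.10, -0.74 and -0.49. In the mutants, tomm-20, tomm-22, tomm-7 and tin-9.1 were then still called lower at day 12, as was tin-44 in set-26(-), and scpl-4 was not. Called higher were timm-23 in set-26(-) and 2 genes in hcf-1(-), timm-23 among them. In controls 4 genes were called higher (timm-23, scpl-4, tin-10, tin-44). Tissue markers also moved with age, in both directions. Summed levels in controls rose from day 1 to day 12 for 4 neuron markers (191.9 to 217.5, then 389.1 to 405.8 CPM). They rose too for 2 sperm markers (7.03 to 8.51, then 33.7 to 50.3) and 10 germline markers (15.8 to 16.8, then 31.4 to 43.9). In controls the summed levels at days 1, 3 and 12 were 3616 to 4861, 933.3 to 1056 and 377.3 to 401.2 CPM for 3 muscle markers, and 7831 to 11546, 270.4 to 329.7 and 20.1 to 68.4 CPM for 3 hypodermis markers. Summed intestine markers, whose day 1 ranges are given above, were at 369.3 to 524.5 CPM at day 12 in controls. They were at 244.9 to 331.7 in set-26(-) and 195.3 to 204.3 in hcf-1(-). These markers were thus above controls in the mutants at day 1 and below them at day 12. The medians of the import genes against controls at day 12 on EV were 0.09 in set-26(-) and 0.30 in hcf-1(-). The part of these tissues in the age differences, and in the change of the mutant effects between days 1 and 12, was not tested.

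**Figure D3:**
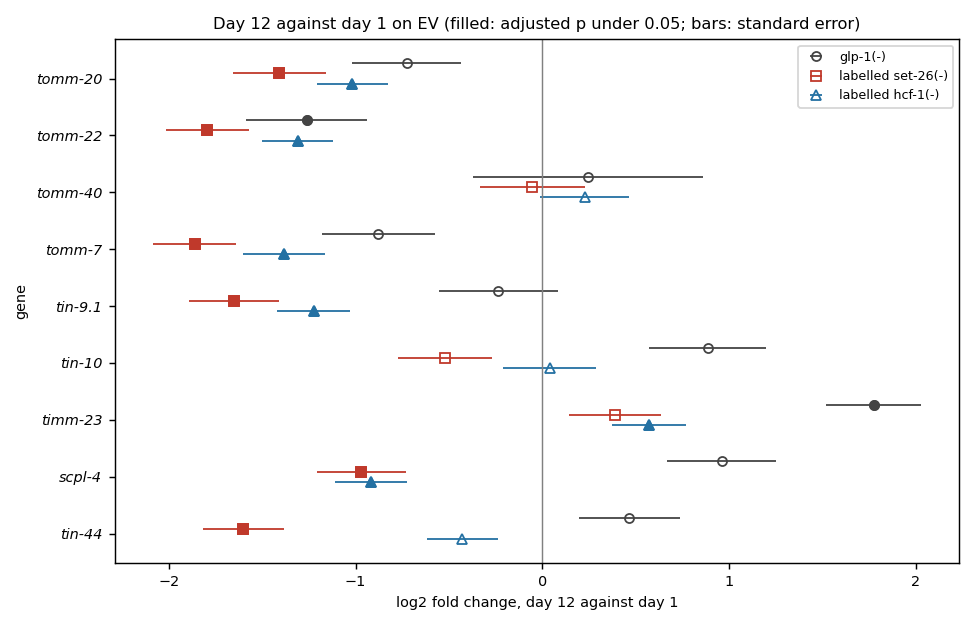
Log2 fold change from day 1 to day 12 on EV (horizontal axis) for 9 import genes (vertical axis) in controls, set-26(-) and hcf-1(-), with standard errors as bars and filled symbols at an edgeR adjusted p under 0.05. The control symbol of timm-23 lies at 1.77, whereas tomm-7 in set-26(-) lies at -1.86, and tomm-40 sits near 0 in all 3 genotypes.

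Next, libraries labelled hda-1 RNAi were compared with EV. At day 3 no import gene passed in any genotype or in their average. All log2 fold changes lay between -0.28 and 0.36, 0 of 9 had an unadjusted p under 0.05 in each of the 4 comparisons, and DESeq2 called 0 in each. Few genes of any kind passed (0.0434%, 0.099%, 0.0159% and 0.296% in controls, set-26(-), hcf-1(-) and the average).

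At day 12, 2 of 9 import genes were lower under hda-1 RNAi labels in the average over 3 genotypes (5.71% of 14836 genes were lower). The other 7 did not pass, and all 9 values were below 0. The channel gene timm-23 was at 79.2 and 86.8 CPM on EV and 48.7 and 86.1 under hda-1 RNAi labels in controls, 86.2 and 127 against 43.2 and 50.9 in set-26(-), and 141 and 162 against 97.0 and 105 in hcf-1(-). The RNAi libraries were the lower pair in both mutants and overlapped with EV in controls. The average log2 fold change was -0.67 ± 0.16 (edgeR adjusted p = 0.0123). The chaperone gene tin-9.1 was at 21.5 and 17.7 against 12.4 and 10.3 CPM in controls, 24.2 and 21.8 against 16.5 and 17.8 in set-26(-), and 23.5 and 24.1 against 17.9 and 20.7 in hcf-1(-). Every RNAi library lay below both EV libraries of its genotype, and the average was -0.48 ± 0.12 (edgeR adjusted p = 0.0149). Both were called without any 1 of the 12 libraries. The median was -0.26, against 0.00 for all genes.

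With a block for each population, since the EV and RNAi worms of 1 number were divided from 1 day 1 population, the average called 4 genes. Shares of all genes are given for fits without a block, so calls with a block cannot be set against them. Besides timm-23 and tin-9.1 these were tin-10 at -0.47 (edgeR adjusted p = 0.00884, range over its alternatives 0.00884 to 0.226) and tin-44 at -0.26 (edgeR adjusted p = 0.0357, range 0.0357 to 0.308). Within single genotypes and without a block 0 of 9 passed, where 0.0772%, 0.294% and 1.26% of all genes were lower in controls, set-26(-) and hcf-1(-). At an unadjusted p under 0.05 edgeR had 2, 2 and 1 of 9 import genes. Of all genes it had 1543 of 12951, 2133 of 13283 and 2685 of 14062. DESeq2 called 0, 1 and 0 import genes. With the block, tin-9.1 was lower in controls (-0.77, edgeR adjusted p = 0.0159, range over its alternatives 0.0159 to 1.00), timm-23 and tin-10 in set-26(-) (-1.13, edgeR adjusted p = 7.03e-05, range to 0.6, and -0.90, edgeR adjusted p = 0.00394, range to 0.891) and timm-23 in hcf-1(-) (-0.54, edgeR adjusted p = 0.000206, range to 0.409). Without the block timm-23 in set-26(-) was at -1.15 ± 0.25 (edgeR adjusted p = 0.0793), and was called without EV replicate 1. The RNAi effect on import genes was not shown to differ between a mutant and controls. In that test 0 of 9 passed for each mutant, as did 0% of 14836 genes. The unadjusted p of edgeR was under 0.05 for 1 of 9 in set-26(-) and 0 of 9 in hcf-1(-), against 839 and 535 of all genes. DESeq2 called 0 import genes in each.

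**Figure D4:**
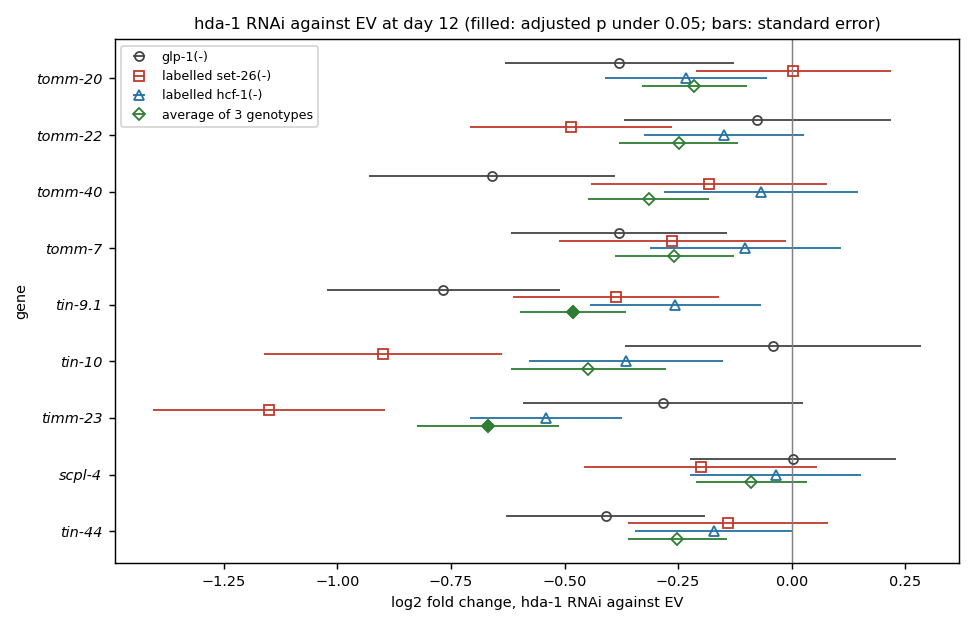
Log2 fold change of hda-1 RNAi labels against EV at day 12 (horizontal axis) for 9 import genes (vertical axis), in each genotype and averaged over 3, with standard errors as bars and filled symbols at an edgeR adjusted p under 0.05 without a block. The averages lie below 0, down to -0.67 for timm-23, and the filled ones are timm-23 and tin-9.1.

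Other genes of the import pathway were taken from a list of 21, of which 15 were found in the table. At day 1, 5 of 13 tested rose in set-26(-) and 6 of 13 in hcf-1(-), and 0 fell, where 4.45% and 7.76% of all genes rose. In set-26(-) these were hsp-6, the mitochondrial HSP70 that drives the import motor (2.48, edgeR adjusted p = 0.00197), mppa-1, a subunit of the peptidase that trims targeting sequences (2.61, edgeR adjusted p = 0.021), tomm-70, an outer membrane receptor (1.93, edgeR adjusted p = 0.00267), timm-17B.1 of the TIM23 complex (1.85, edgeR adjusted p = 0.00284), and ddp-1, a small TIM chaperone (1.26, edgeR adjusted p = 0.0115). In hcf-1(-) the same 5 rose, by 1.11 to 2.01, with the small TIM chaperone gene tin-13 as the other (1.15, edgeR adjusted p = 0.0402). At day 3 on EV 7 and 4 of 14 rose (8.17% and 6.81% of all genes), and at day 12 on EV 0 and 0 of 14 passed (4.67% and 5.81%). The set-26(-) effect was lower at day 12 than at day 1 for 4 of 14 (tomm-70, timm-17B.1, hsp-6, mppa-1), and that of hcf-1(-) for 0 of 14, against 1.36% and 2.51% of all genes. From day 1 to day 12, 3 of 13 fell and 1 rose in controls (mtx-1, ddp-1 and dnj-21 lower, hsp-6 higher), 10 of 14 fell in set-26(-), and 9 of 13 fell and 1 rose in hcf-1(-). Of all genes, 15%, 21.1% and 20.5% fell in these genotypes, and 11.8% and 19.2% rose in controls and hcf-1(-). In the day 12 average of hda-1 RNAi labels against EV, gop-3 (SAMM50 in mammals, which inserts outer membrane proteins) and tin-13 were lower, by -0.61 (edgeR adjusted p = 0.0262) and -0.44 (edgeR adjusted p = 0.0367), of 15 tested (5.71% of all genes were lower).

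Likeness between import genes was described by Pearson's r over the 15 group means, which share libraries and scaling. The 36 pairs gave r of 0.13 to 0.96 (median 0.62). The closest pairs joined outer membrane genes with a chaperone, as tomm-20 with tin-9.1 (0.96) and with tomm-22 (0.94), while timm-23 was closest to tin-10 (0.86) and scpl-4 (0.79) and far from tomm-7 (0.17). Of 9062 other genes, those most like the mean standardized profile of the 9 were gfm-1 (0.98) and tufm-1 (0.97), elongation factors of mitochondrial translation, timm-17B.1 (0.97), dnj-10 (0.97), a mitochondrial DnaJ chaperone, and atad-3 (0.96), a mitochondrial membrane ATPase. The median over those genes was -0.01.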

How the data were processed

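RNA was measured by 3′ mRNA sequencing in 30 libraries, 2 in each of 15 groups, which were assigned by their labels. The authors trimmed reads with Trim Galore 0.6.5, aligned them to WBcel235 with STAR 2.7.9a, kept uniquely mapped reads with few mismatches, counted them per gene by strand, and deposited raw counts of 46934 genes without normalization. The annotation release is not given in the sources used here. Positions come from Ensembl release 115, which holds 46924 of these genes, and symbols were found for 44113.

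Counts were fitted with edgeR 4.0.16 in R 4.3.3 (TMM normalization, quasi-likelihood F test), and p-values adjusted by the Benjamini-Hochberg method over all genes with more than 10 reads in at least 2 libraries of the fit. The threshold for a call was an adjusted p of 0.05. The standard error is the log2 fold change divided by the square root of F. Fits held the 6 libraries of a day and bacteria (mutants), the 4 of a genotype (hda-1 RNAi, aging), or 12 (averages and differences of effects). CPM were scaled over all 30 libraries. The import genes and lists were chosen with earlier results of these data known, and every member is named. The most similar genes were the 5 with the highest r among those with a mean of at least 50 reads.

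Alternatives were a replicate block, DESeq2 1.42.0, its size factors in edgeR, no filter, other libraries in the fit, and each replicate left out. A block by population and scaling by library totals were added after seeing the data. The block is a pairing for hda-1 RNAi and for age, since the study's methods describe worms of 1 day 1 population divided among plates. Deviations of same-numbered libraries correlated at 0.13 to 0.443 for hda-1 RNAi and 0.0073 to 0.305 for age. The fits were tested on simulated counts, where 4-fold changes were recovered in 77% (day 1), 59% (aging in controls), 99% (hda-1 RNAi at day 12 in hcf-1(-)) and 42% (difference of RNAi effects) of genes. The number of changed genes was set beforehand and genes with low mean reads were not among them, so these rates need not hold in the data.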

Additional observations from a re-analysis of the deposited data

Results flagged for a closer look

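The effect of a mutation on 4 import genes for set-26(-) and 2 for hcf-1(-) differed between days 1 and 12 by the test of the difference itself. For set-26(-) the log2 differences, day 12 minus day 1, were -1.44 for tin-9.1, -1.41 for timm-23, -1.95 for scpl-4 and -2.09 for tin-44. For hcf-1(-) they were -1.25 for timm-23 and -1.93 for scpl-4. Both days' control libraries enter each of these values. For timm-23 the control mean rose from 23.7 CPM at day 1 to 83.0 at day 12. Its means in the mutants did not fall, at 80.4 and then 106.7 CPM in set-26(-), and 101.0 and then 151.6 in hcf-1(-). In controls scpl-4 was at 11.4 and 9.31 CPM at day 1 and 19.9 and 21.4 at day 12, and in hcf-1(-) at 47.4 and 45.0 and then 24.7 and 24.6.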

How the results depend on the processing

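Of 190 counts of called import genes under other settings, 155 stayed within 1.5 times the main count. The exceptions follow, and their causes were not tested. DESeq2 called 2 genes in controls from day 1 to day 3, and 1 each for hcf-1(-) at day 12 on EV, hcf-1(-) against set-26(-) at day 1, and hda-1 RNAi in set-26(-) at day 12. With its size factors in edgeR these were 2 in controls to day 3 and 1 for the change of the hcf-1(-) effect. Without the filter 2 were called in controls to day 3, for hcf-1(-) at day 12 on EV, for hcf-1(-) against set-26(-) at day 3 and for hda-1 RNAi in set-26(-) at day 12, and 1 for hcf-1(-) against set-26(-) at day 1. With other libraries in the fit there were 5 in controls to day 12, 2 in controls to day 3, 3 for hcf-1(-) at day 1, 8 for set-26(-) at day 3, and 1 each for hcf-1(-) against set-26(-) at day 1 and hda-1 RNAi in set-26(-) at day 12. By library totals they were 4 in controls to day 12, 4 for the change of the hcf-1(-) effect, 1 for hcf-1(-) at day 12 on EV, 8 for each mutant at day 3 on EV and 6 for hcf-1(-) at day 3 on hda-1 RNAi. The replicate block gave 0 in controls to day 3 (changing no other call count of aging by over 1.5 times), and for hda-1 RNAi at day 12 it gave 1 in controls, 2 in set-26(-) and 1 in hcf-1(-). Mutants and controls share only a number, and there the block gave 8 for set-26(-) at day 3 on EV, 1 for hcf-1(-) at day 12 on EV, 4 for hcf-1(-) at days 3 and 12 and 2 for set-26(-) at day 12 on hda-1 RNAi, and 2 for hcf-1(-) against set-26(-) at day 3. Correlations of their same-numbered libraries ran from -0.0312 to 0.369. The block by population gave 4 for the day 12 average and 1 for the change of the hcf-1(-) effect. With 1 library left out, where a lone sample is taken to vary like the rest, called genes numbered 3 to 8 for set-26(-) and 2 to 6 for hcf-1(-) at day 1, 2 to 4 and 1 to 3 at day 3 on EV, 0 to 1 each at day 12 on EV, and 2 to 5 for set-26(-) at day 3 on hda-1 RNAi. They were 0 to 2 for hcf-1(-) against set-26(-) at day 3, 0 to 1 for hda-1 RNAi in set-26(-) at day 12 and 2 to 3 for its average. From day 1 to days 3 and 12 they were 0 to 3 and 1 to 3 in controls, 3 to 7 and 5 to 6 in set-26(-), and 6 to 8 and 5 to 6 in hcf-1(-). For the change of effect they were 2 to 4 in set-26(-) and 1 to 2 in hcf-1(-). Over all genes, counts called at day 1 ran from 257 to 1285 in set-26(-) (1069 in the main fit) and 298 to 1748 in hcf-1(-) (1682). Of 65 gene calls, 34 were made under every alternative and no called gene changed direction. With 2 libraries a group, simulated 2-fold changes were recovered in 11% of genes at day 1 and 2% for aging in controls. Far fewer genes were changed there than were called in the data (3245 of 12115 for aging in controls), so these rates need not hold.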
